A study of Homo sapiens with 2 samples.

Results

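The 4 human HOX gene clusters were examined in a Hi-C map of HEK293T cells, a line of human embryonic kidney cells that carries the SV40 large T antigen. The titles of the libraries read HEK293, while their group is given as HEK293T. Each cluster was given as an interval in hg19: HOXA at 27130001 to 27250000 of chromosome 7, HOXB at 46600001 to 46810000 of chromosome 17, HOXC at 54330001 to 54450000 of chromosome 12, and HOXD at 176940001 to 177060000 of chromosome 2. A window was the cluster with 1 Mb on each side, and all contact domains, loops and compartment bins that touched a window were taken. These were 34 of 3845 contact domains, 18 of 1507 loops and 13 of the 2883 1 Mb bins that carry a score. The series holds 2 in situ Hi-C libraries of 1 group. The labels name no genetic change in these cells and no treatment other than fixation with formaldehyde, and all 3 deposited tables describe both libraries together. No value below therefore has a replicate error, no condition can be compared, and nothing was tested. The series belongs to work on the NuRD remodelling complex and the insulator protein CTCF. Contacts come from all cells of the culture, so folding that differs between cells or between alleles appears as 1 average.

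HOX genes encode homeodomain transcription factors that give cells of the embryo their position along the body axis. They lie side by side in each cluster, and their order on the chromosome matches the order in which they are used along the axis. Silent HOX genes are a classic target of Polycomb repression, CTCF sites inside the clusters can separate active from silent genes, and the HOXA and HOXD clusters are known to draw on enhancers in the gene-poor sequence on either side. In the kidney, the HOX11 genes are needed for the first steps of organ formation.

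The windows hold 39 HOX genes, of which 11 belong to HOXA, 10 to HOXB, 9 to HOXC and 9 to HOXD. Their order came from a RefSeq table of another build (GRCh38.p14), which was used for names and order only, so domain limits and loop anchors are placed here against the limits of a cluster and not against single genes. HOXA13 lies at the higher coordinates of its cluster, and HOXB likewise runs up from HOXB1 to HOXB13. The other clusters run the opposite way, from HOXC13 to HOXC4 and from HOXD13 to HOXD1. In that build the genes span 200, 117 and 103 kb in HOXB, HOXC and HOXD, against intervals of 210, 120 and 120 kb, so these intervals are of the right size to hold them.

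No contact domain spanned any of the 4 clusters, and every cluster had at least 1 domain limit inside it. A contact domain is a stretch of chromatin whose parts meet each other more often than they meet the neighbouring sequence. In each cluster a domain began inside and ran on past the limit with the higher coordinate. In HOXA, HOXB and HOXC another domain came from the lower side and ended inside, so that the cluster lay across a gap between domains. Of all 120 kb intervals of the scored genome, taken at 5 kb steps, 28.0% were spanned whole by a domain, 24.0% had a domain start or end inside, 14.3% had a domain that began inside and ended beyond the higher limit, and 4.89% held a whole gap. Of the 210 kb intervals, the length of HOXB, these shares were 20.2%, 36.3%, 21.9% and 11.2%. Most intervals of either length were thus spanned by no domain, so in this respect the clusters were like most of the map. Within 1 Mb bins of positive compartment score, which held the midpoints of 1.73 domains per bin against 0.953 in negative bins, a whole gap lay in 6.34% of 120 kb and 14.6% of 210 kb intervals. The clusters are 4 regions of 1 map that were picked for their genes, so these shares describe the map and are no test.

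**Figure D1:**
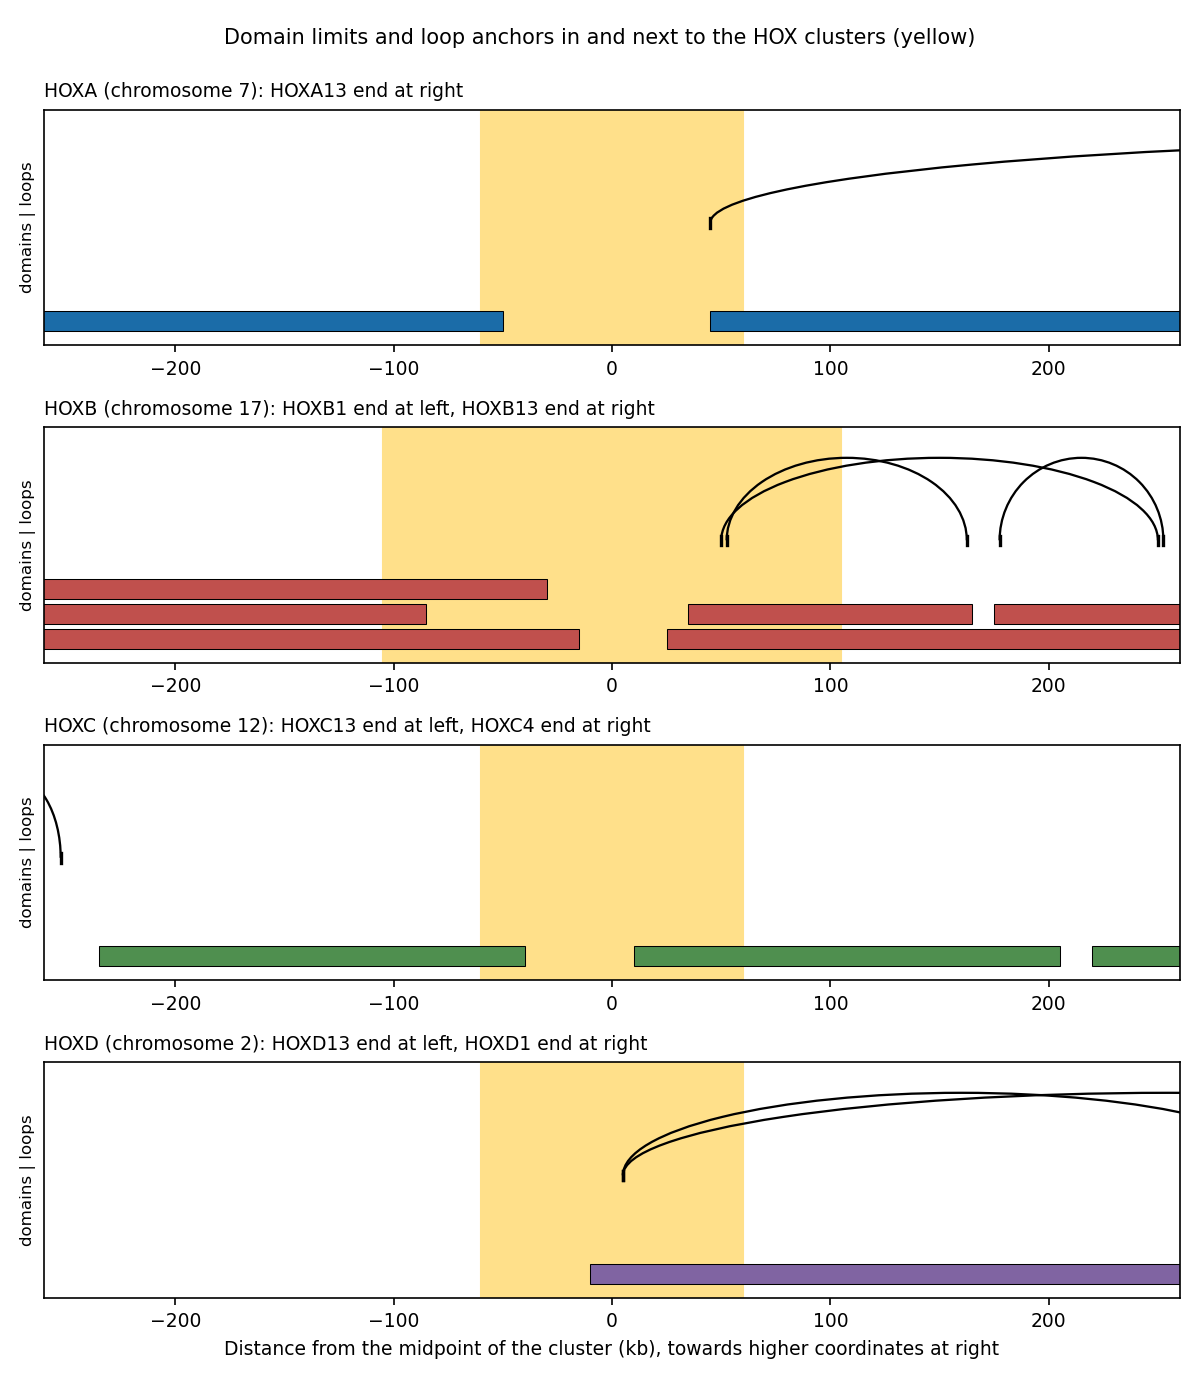
Contact domains (bars) and loops (arcs that join anchor centres) within 260 kb of the midpoint of each cluster, with distance in kb on the horizontal axis and the cluster in yellow; the height of bars and arcs has no scale. In HOXA, HOXB and HOXC the bars leave a gap inside the yellow interval, and every arc with an anchor in a cluster leads to the right, towards higher coordinates.

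In HOXA, the domain from 26905001 to 27140000 ended 10 kb inside the cluster's lower limit. The next domain, from 27235001 to 27620000, began 15 kb before the limit at the HOXA13 end. The 95 kb between them lay wholly inside the cluster, so only 20.8% of the cluster was covered by domains, the lowest share of the 4. The first domain was 235 kb long with a caller score of 1.50, and the second was 385 kb long with a score of 1.67. The score is that of the authors' caller and has no unit, and 84.7% and 95% of all domains scored lower. A loop led from the HOXA13 end of the cluster. Its anchor at 27230001 to 27240000 was centred on the start of the second domain, and its partner at 28050001 to 28060000 lay 800 kb beyond the cluster and 435 kb beyond the end of that domain. It had 47 observed contacts, an enrichment of 2.94-fold over the contacts expected from the surrounding pixels (the donut expectation; exact 95% Poisson interval 2.16 to 3.90). In the authors' deposited table the highest of its 4 q-values was 0.0805, close to the highest of any loop, 0.0999, so it lay near the table's threshold, and a limit of 0.01 on all 4 would leave HOXA with no anchor. HOXA13, which directs limb and genital tract development, is the gene at the end from which the loop ran. Its promoter is shown because of that place, with each CG pair in capitals (RefSeq, GRCh38.p14, chr7:27200042-27200341, minus strand, 250 bases before to 50 after the gene's start):
HOXA13 promoter: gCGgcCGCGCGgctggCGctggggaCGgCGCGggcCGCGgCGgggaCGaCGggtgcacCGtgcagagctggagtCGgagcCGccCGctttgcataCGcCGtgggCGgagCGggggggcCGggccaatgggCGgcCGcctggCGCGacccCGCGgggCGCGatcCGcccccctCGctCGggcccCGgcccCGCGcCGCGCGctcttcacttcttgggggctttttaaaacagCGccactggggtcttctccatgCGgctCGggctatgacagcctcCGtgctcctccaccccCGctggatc

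In HOXB the limits were stacked. A domain from 46225001 to 46690000, 465 kb long with a score of 1.53, ended 90 kb inside the cluster from the HOXB1 end. Inside it, domains ending at 46620000 and 46675000 reached 20 and 75 kb into the cluster, with scores of 1.01 and 1.43. From the other side, domains began at 46730001 and 46740001, which is 80 and 70 kb before the limit at the HOXB13 end. The larger of these, 235 kb long, had a score of 1.72, the highest of the 34 domains, and 96.9% of all domains scored lower. The gap was the narrowest of the 4, 40 kb near the middle of the cluster, and 81.0% of the cluster was covered. A pair of loops ran from the part of the cluster nearest HOXB13 to beyond HOXB13, the homeobox gene best known from the prostate. The first joined 46750001 to 46760000 with 46950001 to 46960000 on 147 contacts (2.60-fold, 2.19 to 3.05), the most contacts of any loop in the windows. Its anchors are 10 kb wide, and raw counts are not alike for loops with 5 kb anchors. The enrichment of this loop was above that of only 41.1% of all loops. The second joined 46755001 to 46760000 with 46865001 to 46870000 on 64 contacts (2.70-fold, 2.08 to 3.45). Each lay at the corner of a domain, that is, near both of its ends. The partner anchors were centred 10 kb short of the end of the 235 kb domain and 2.5 kb short of the end of the 130 kb domain nested in it. The anchors in the cluster were 25 and 17.5 kb past the starts of these domains.

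HOXC had domain limits inside but no loop anchor in the cluster or within 50 kb. The domain from 54155001 to 54350000 ended 20 kb inside the cluster, at the HOXC13 end, and the domain from 54400001 to 54595000 began 50 kb before the limit at the HOXC4 end. Both were 195 kb long, with scores of 1.49 and 1.64, above those of 84.1% and 93.4% of all domains. The gap of 50 kb left 58.3% of the cluster covered. Neither domain had a loop at its corner. The nearest listed anchors lay 190 kb below and 690 kb above the cluster. The loop table holds what passed a threshold and nothing else, so this is a cluster with no loop listed, not one shown to have none. HOXC13, known for its role in hair and nail growth, and HOXC4 lie at the 2 ends of this cluster.

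HOXD differed in having a limit from 1 side only. The domain from 176990001 to 177325000 began 50 kb inside the cluster as counted from the HOXD13 end and ran out past HOXD1. It was 335 kb long with a score of 1.49, above 84.5% of all domains. The highest score of the HOXD window, 1.56, belonged to a domain farther off, from 178025001 to 178195000. Below the cluster's domain none was listed for 455 kb, back to 176535000, so the HOXD13 end of the cluster and 405 kb beyond it were uncovered. That gap was longer than 77.9% of the 3499 gaps between domains of the whole map, whose median was 95 kb. The gaps at HOXA, HOXB and HOXC were longer than 49.4%, 31.0% and 36.4% of them, so by width alone these 3 were ordinary. A single anchor inside HOXD, 177000001 to 177010000, took part in a pair of loops. The first reached 177310001 to 177320000 on 75 contacts (2.91-fold, 2.29 to 3.64) and was centred 10 kb short of the end of the domain, a corner loop. The anchor in HOXD was centred 15 kb past the start of that domain. The second reached 177500001 to 177510000 on 58 contacts (3.20-fold, 2.43 to 4.13), 180 kb beyond the domain. The intervals of this pair overlap widely, so their enrichments cannot be told apart. Below HOXD, the nearest anchor of any loop was 2860 kb away. HOXD13 specifies digits in the limb, and HOXD1 lies at the end towards which both loops ran. The promoter of HOXD1 is shown for that reason, with CG pairs in capitals (RefSeq, GRCh38.p14, chr2:176188418-176188717, plus strand):
HOXD1 promoter: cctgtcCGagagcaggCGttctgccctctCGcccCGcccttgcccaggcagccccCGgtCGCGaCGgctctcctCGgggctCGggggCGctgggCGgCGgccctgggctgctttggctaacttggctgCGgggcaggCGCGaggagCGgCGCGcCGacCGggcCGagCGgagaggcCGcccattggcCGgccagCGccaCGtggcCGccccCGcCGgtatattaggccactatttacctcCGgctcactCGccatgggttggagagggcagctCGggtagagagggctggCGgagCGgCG

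The HOXA13 and HOXD1 promoters held 44 and 36 CG pairs in 300 bases, and that of HOXD13 held 24, against a median of 14 over the 35116 promoters of the table. HOXC4 had 15 and HOXB1 11, so a high count was not shared by all 5 of these genes at cluster ends. The table held promoters for 20 of the 39 HOX genes, under the 80% needed for a comparison of the whole set, which was therefore void.

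The 5 loops with an anchor in a cluster all ran to a partner at higher coordinates, and no loop touching the windows crossed a cluster from one flank to the other. In terms of gene order these loops left HOXA and HOXB past the HOXA13 and HOXB13 ends but left HOXD past the HOXD1 end, so the shared direction on the chromosome was not a shared direction along the genes. The 5 loops are not 5 separate sites, as the HOXD pair shared an anchor and the HOXB pair had overlapping anchors. Every loop has a lower and a higher anchor, so over the whole map as many anchors have a partner above as below. An anchor inside or within 50 kb was found in 17.2% of all 120 kb intervals and in 21.9% of those of 210 kb. A loop of up to 2 Mb crossed 9.70% and 7.01% of them. With crossing this rare in the map at large, its absence from 4 regions is what most regions show.

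Domains that had a limit in a cluster scored high. Of these 10 domains, 9 lay above the upper quartile of all domains (1.39), and their median was 1.50. Only the domain that ended 20 kb inside HOXB, at 1.01, fell below the median of all domains, 1.20. Of the other 24 domains in the windows, 9 lay above that quartile, with a median of 1.29. Over all 34, 23 (67.6%) scored above the median of the map. What the score measures is stated in none of the sources used, and 5 of the 34 domains are nested in another of them and share its contacts. Of the 10 domains with a limit in a cluster, 5 belong to HOXB. Those ending at 46620000 and 46675000 and that beginning at 46740001 are nested in others of the 10, so the 10 are not separate.

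**Figure D2:**
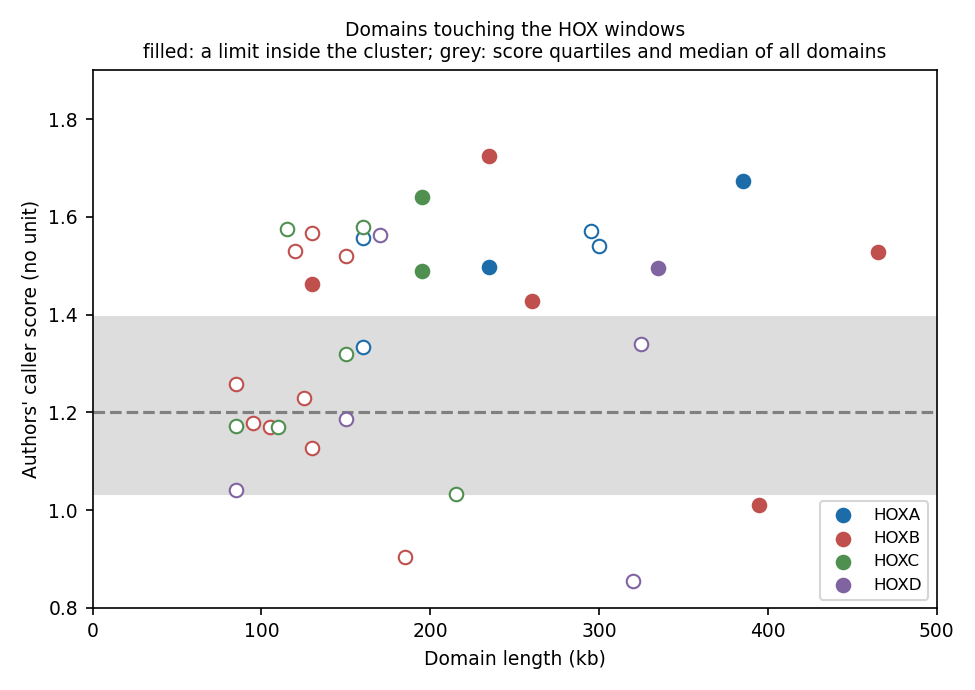
Length (kb) and authors' caller score of each of the 34 domains touching the windows, coloured by cluster, with filled points for the domains that begin or end inside a cluster; the grey band and dashed line are the quartiles and median of all 3845 domains. All filled points but 1 of HOXB lie above the band.

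The windows touched more domains than most windows of their length, and HOXB the most. The HOXA window touched 6 domains, HOXB 14, HOXC 8 and HOXD 6, where the median of all windows of the same length was 3. Fewer domains were found in 81.5% of such windows for the counts of HOXA and HOXD, in 94.6% for HOXC and in 99.9% for HOXB. All 5 nested domains of the 34 lay in the HOXB window and are included in its 14. Nested domains were counted in the same way in all windows of the map. Chromosome 17 is rich in domains, with a median of 5 per window, and there 97.4% of windows had fewer than the HOXB window. On their own chromosomes 92.1%, 92.8% and 90.5% of windows had fewer than HOXA, HOXC and HOXD. Of the 13 bins touching the HOX windows 11 had a positive compartment score, and positive bins held 1.73 domain midpoints per bin against 0.953 in negative bins. Windows in positive bins alone were not counted apart, for domains or for loops. Domains were short in HOXB, with a median of 130 kb (85 to 465 kb), and in HOXC, with 155 kb (85 to 215 kb). They were longer in HOXA, 265 kb (160 to 385 kb), and in HOXD, 245 kb (85 to 335 kb), against 235 kb over all domains. The share of sequence covered did not follow the count in HOXC. Domains covered 62.5% of the HOXA window against 40.5% of chromosome 7, 69.0% of HOXB against 42.3% of chromosome 17, and 59.0% of HOXD against 40.6% of chromosome 2, but 54.2% of HOXC against 54.9% of chromosome 12.

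**Figure D3:**
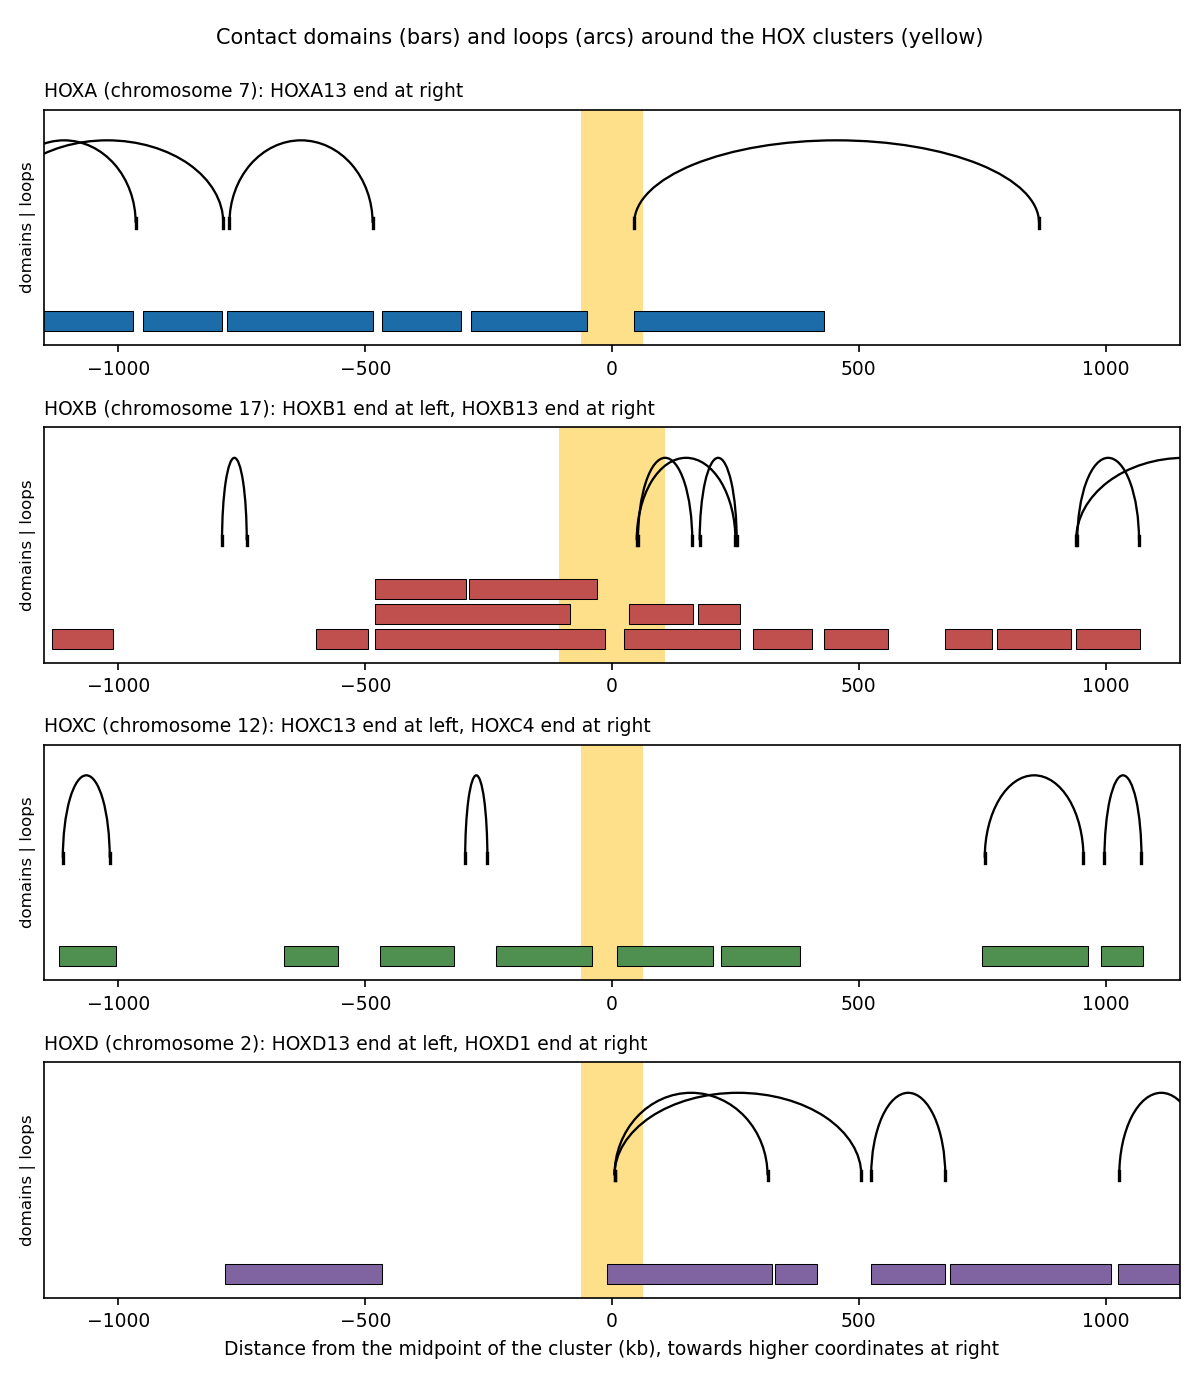
The same 4 windows with their 1 Mb flanks, by distance from the midpoint of the cluster (kb, horizontal axis), with domains as bars and loops as arcs; heights have no scale. Domains crowd the left of HOXA and the right of HOXD, both sides of HOXB, and stand apart on the left of HOXD.

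The flanks of HOXA and HOXD were lopsided. Below HOXA, 5 domains covered 93.0% of the adjoining 1 Mb, and above it, next to HOXA13, a single domain covered 37.0%. Next to HOXD1, 5 domains covered 86.0%, and next to HOXD13 1 domain covered 32.0%. The sparse flank was thus the one at the HOXA13 and HOXD13 ends, which is the higher side of HOXA and the lower side of HOXD. In HOXB the flank at HOXB1 was covered to 57.5% and that at HOXB13 to 78.0%, and in HOXC the flank at HOXC13 to 49.0% and that at HOXC4 to 59.0%. Over the scored genome 41.7% was covered. The sparse flanks of HOXA and HOXD lay below this and below their own chromosomes, and the flanks of HOXC lay on either side of the level of chromosome 12. Loops followed in part. The HOXA window had 3 loops on the lower side against 1 on the HOXA13 side, and the HOXD window had 4 loops on the HOXD1 side against 0 on the HOXD13 side. HOXB had 1 loop on the HOXB1 side and 5 on the HOXB13 side, and HOXC had 2 on each. Such counts are small, and no spread between libraries is known for them.

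Loops too were more numerous than in most windows, but their enrichments were ordinary. The HOXB window touched 6 loops and each of the others 4, where the median of all windows of these lengths was 1. Fewer loops were found in 97.5% of windows for the count of HOXB and in 90.7% for the others. On their own chromosomes these shares were 86.0% for HOXB, where the median of chromosome 17 was 2 loops, 87.8% for HOXA, 91.3% for HOXC and 93.6% for HOXD. Against its own chromosome, HOXB was thus the least unusual of the 4 in its number of loops. The median enrichment of the 18 loops was 2.92-fold, with a range of 2.12 to 5.35, against 2.71-fold over all loops (quartiles 2.40 and 3.20). The interval of 13 of the loops included 2.71, that of 4 lay above it and that of 1 below. The highest, 5.35-fold (3.73 to 7.44) on 35 contacts, joined 25930001 to 25935000 with 26400001 to 26405000 in the HOXA window. From the same place a 10 kb anchor, 25930001 to 25940000, was joined to 26220001 to 26230000 on 61 contacts (2.59-fold, 1.98 to 3.33). The intervals of these loops do not overlap, but the first was called with 5 kb anchors and the second with 10 kb anchors. Another loop of that flank, between 26410001 to 26420000 and 26700001 to 26710000, had 92 contacts (3.96-fold, 3.19 to 4.86). It began next to the far anchor of the first, and its own far anchor lay 420 kb below the cluster. These are separate calls, and whether the loops are linked was not tested. All these intervals cover counting error only, and several anchors are shared or overlap.

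**Figure D4:**
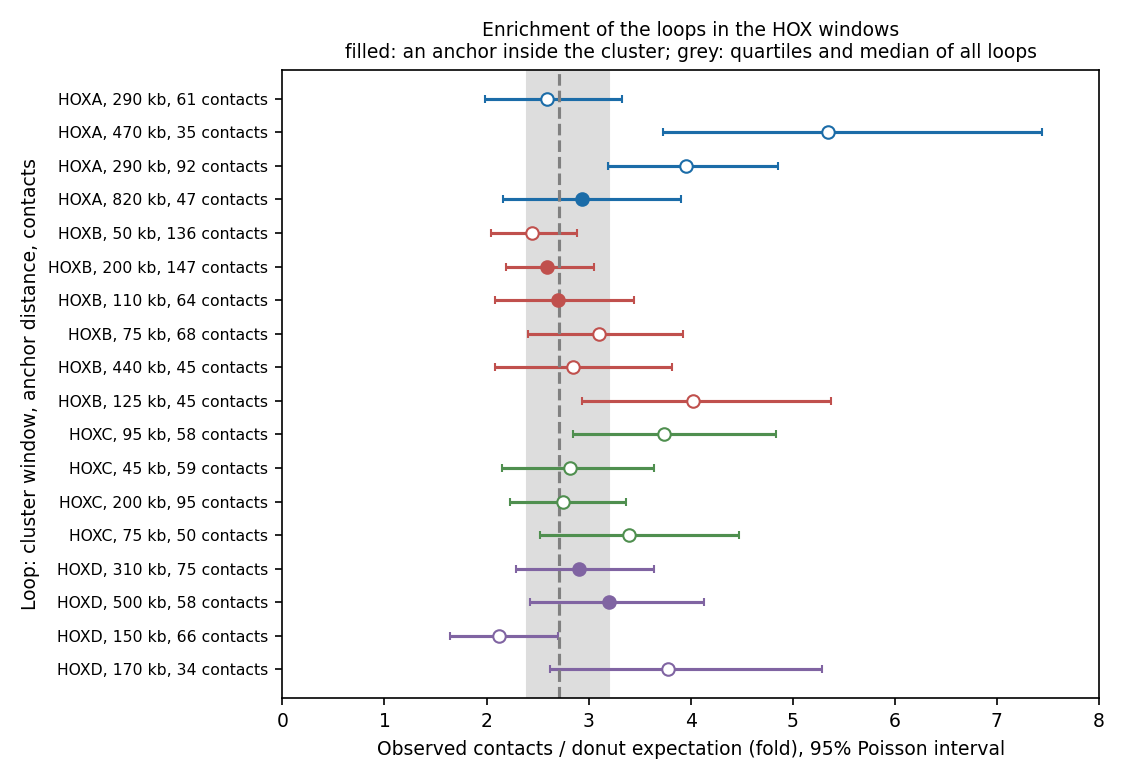
Observed contacts over the donut expectation (fold, linear axis) for each of the 18 loops, with exact 95% Poisson intervals, coloured by window; filled points have an anchor in the cluster. The grey band and dashed line are the quartiles and median of all 1507 loops, and the 5 filled points lie between 2.60 and 3.20, in or at the edge of the band.

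In the HOXB window the highest enrichment was 4.02-fold (2.93 to 5.38) on 45 contacts, between 47645001 to 47650000 and 47770001 to 47775000. A loop from an overlapping anchor, 47640001 to 47650000, reached 48080001 to 48090000 on 45 contacts (2.85-fold, 2.08 to 3.82). The first of these was called with 5 kb anchors and the second with 10 kb anchors. In HOXC the highest was 3.74-fold (2.84 to 4.84) on 58 contacts, between 53275001 to 53280000 and 53370001 to 53375000. In HOXD it was 3.78-fold (2.62 to 5.28) on 34 contacts, between 178025001 to 178030000 and 178195001 to 178200000. In HOXA, HOXB and HOXD, the 3 clusters with an anchor inside, the loop with the highest enrichment thus lay in a flank, though its interval overlapped that of at least 1 loop from the cluster. These 3 flank loops were called with 5 kb anchors. The loops from the clusters had 10 kb anchors, except the second of HOXB, so position and anchor size cannot be told apart here. The lowest of the 18 loops, 2.12-fold (1.64 to 2.70) on 66 contacts, joined 177520001 to 177530000 with 177670001 to 177680000. The highest of its 4 q-values from the authors was 0.0594, and a limit of 0.01 on all 4 would leave HOXD with 3 loops. It is among the corner loops of HOXD counted next. Of the 18 loops, 12 (66.7%) lay at a domain corner, 2 in HOXA, 4 in HOXB, 3 in HOXC and 3 in HOXD, against 63.2% of all loops. Of the 34 domains, 12 (35.3%) carried a corner loop, against 24.7% of all domains. Of the 10 domains with a limit in a cluster it was 3, of which 2 began in HOXB and 1 in HOXD. The share of loops at corners was thus near that of the whole map, and no test says whether that of domains differs.

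The compartment score divides the genome into parts that meet their own kind more often, the open A and the closed B compartment. Neither the labels nor the files say which sign stands for which, or whether the sign was set alike on every chromosome. Positive bins held more domains per bin than negative ones on 21 of 23 chromosomes, among them those of the 4 clusters. These were 1.46 against 0.907 domains per bin on chromosome 7, 2.33 against 1.91 on chromosome 17, 2.25 against 1.18 on chromosome 12 and 1.79 against 0.753 on chromosome 2. By the share of sequence covered, positive bins led on 18 of 23 chromosomes. Chromosome 17 went the other way, with 36.4% of positive and 50.2% of negative bins covered. Chromosome 13, which is in both counts, had 96 positive bins and a single negative one. The bins that touched the windows were positive in 11 of 13 cases, against 48.9% of all signed bins. With every sign turned this becomes 2 of 13 against 51.1%, and the pooled count has a meaning only if the sign is the same on these chromosomes. The bin that holds HOXA had a score of 0.118, higher than 91.1% of the bins of chromosome 7, and its neighbours below and above had 0.133 and 0.0967. HOXB lay in a bin of 0.138, higher than 91.2% of those of chromosome 17, between bins of 0.0881 and 0.121. HOXC lay in a bin of 0.104, higher than 84.8% of those of chromosome 12. The bin below it had 0.121 and the one above -0.0257, so the sign switched within the HOXC window, on the side of HOXC4.

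HOXD lay across bins of opposite sign, though the negative one was only just negative. Its interval crosses a bin limit, and the bin from 176 to 177 Mb had -0.00442 while the bin from 177 to 178 Mb had 0.0217. These were higher than 62.8% and 74.4% of the bins of chromosome 2. Counted from the highest score, the negative bin ranked 90 of 242, close to the change of sign, as 84 bins of the chromosome were positive. The bins on either side had 0.0219 and 0.0152, higher than 75.2% and 71.5%. The only negative bin of the HOXD window, by this small margin, was thus the one that holds the HOXD13 end of the cluster and the whole stretch without domains below it. Scores are scaled within a chromosome, so their levels cannot be set side by side, and with the sign unknown the clusters were not put in order. If the sign were turned, the bins with HOXA, HOXB and HOXC would score higher than 8.23%, 7.5% and 14.4% of the bins of their chromosomes, and those with HOXD higher than 36.8% and 25.2%.

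**Figure D5:**
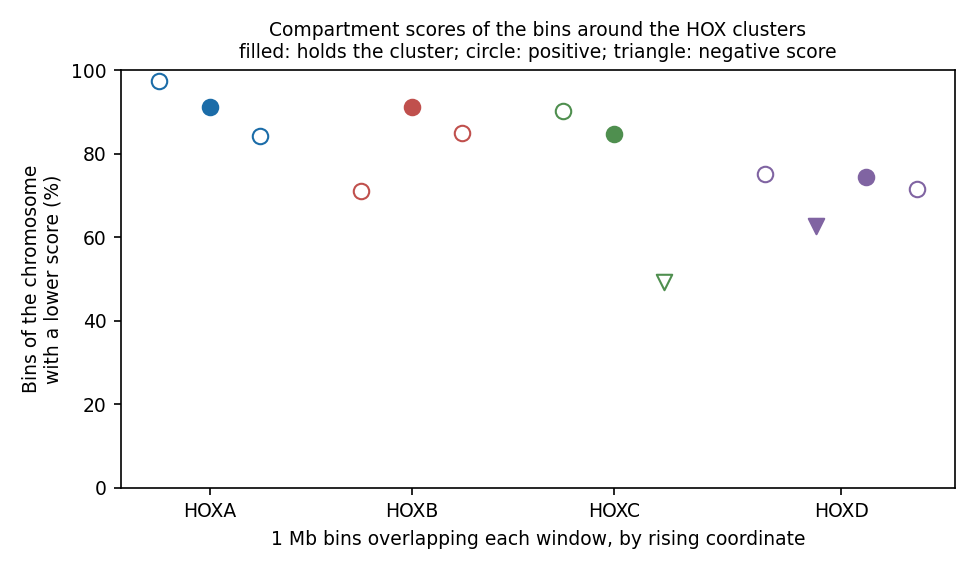
Share of the bins of the same chromosome that score lower (%, vertical axis) for each 1 Mb bin touching a window, by rising coordinate from left to right; filled symbols hold the cluster, circles are positive and triangles negative scores. The bins with HOXA, HOXB and HOXC lie at 84.8% or higher, those with HOXD at 62.8% and 74.4%, with the sign as deposited.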

How the data were processed

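In situ Hi-C of 2 HEK293T libraries was analysed from 3 deposited tables, each for both libraries together. No source used here says how they were combined. The tools named in the submitters' processing notes are BWA 0.7.8, FastQC 0.11.7 and Picard, and the build is hg19. Per the deposited file's values, the compartment score of each 1 Mb bin is scaled so that its squares sum to 1 on each of 23 chromosomes. The domain score is the authors' caller's own. Per the name of the deposited file, HiCCUPS called the loops at 5 and 10 kb. The loop table gives, per the file headers, the count of observed contacts, the contacts expected from 4 neighbourhoods and, as the authors' q-values, an FDR for each. These callers list only what passed a threshold, and the number of reads is unknown here.

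Positions count from 1 and include both ends. Beside means within 50 kb. Anchor distances are start to start. For a corner loop, each anchor centre had to be within 50 kb, or 0.2 of the loop length if that was more, of the matching end of a domain. Enrichment is the observed count over the donut expectation, held fixed, with an exact Poisson interval (SciPy 1.17.1), which covers counting error only. Shares over all intervals or windows count every position at 5 kb steps within scored bins. These overlap one another. The counting code was tested on simulated domains and loops. No replicate, batch or condition could be compared, and no statistical test was run. The clusters, rules and lists were chosen with earlier results of these data known. Named are all domains with a limit, and loops with an anchor, in or beside a cluster, and, in each window, the domain with the highest score and the loop with the highest enrichment. Single genes were not placed, because the gene table is of another build. Alternatives were other flanks, distances, tolerances, thresholds and expectations.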

Additional observations from a re-analysis of the deposited data

How the results depend on the processing

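Of 81 alternative values for 37 results, 63 kept within 1.5 times the reported count or share, or within the interval of the enrichment. The other 18 moved. With flanks of 500 kb the loops numbered 2 in HOXA, 3 in HOXB and 1 in HOXC, and the domains of HOXC 5. With flanks of 2 Mb the HOXA window held 12 domains and 12 loops. With domains above the median score only, 9 remained in HOXB, 5 in HOXC and 3 in HOXD, by construction fewer. With all 4 q-values at most 0.01 the anchor in HOXA was lost, leaving 0. Counting anchors within 100 kb gave 4 at HOXB, and adding loops that span the window gave 10 there. A corner tolerance of 10 kb left 1 corner loop in HOXA and 2 in HOXB. HOXC and HOXD each kept 2 of 3, which is within 1.5 times. No corner loop anchored in a cluster met this tolerance. Those anchors lay 25 and 17.5 kb past the domain starts in HOXB and 15 kb past in HOXD. Over the highest of the 4 expectations, which is never below the donut, the summed enrichment was 2.58-fold in HOXA, 2.25-fold in HOXB, 2.45-fold in HOXC and 2.17-fold in HOXD, against 3.39, 2.73, 3.06 and 2.77. The counts of domain limits in or beside the clusters stayed within 1.5 times under the alternatives run. In HOXB the count went from 5 to 7 within 100 kb, and to 4 with domains above the median score only. All reported limits lay inside the clusters, so a shorter distance could not remove any of them. No paired analysis was possible because the series has 1 group and the tables have no column per library, and for the same reason neither library could be left out. With 34 to 147 contacts per loop, the intervals of most loops overlap.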

Other observations

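Several loops of the table pass over a HOX window with both anchors far outside it, and they were kept out of the counts above. At HOXB there were 4, which joined 1 anchor on chromosome 17 (62910001 to 62920000) to anchors starting at 43650001, 44240001, 44290001 and 44360001, 18.55 to 19.26 Mb away. They had 32 to 85 contacts. Their enrichment over the donut was 17.4-fold to 51.9-fold, and over the highest expectation 3.24-fold to 12.4-fold. HOXC was passed over by 1 loop of 99.85 Mb on 24 contacts, and HOXD by 1 of 97.01 Mb on 33 contacts. HOXA was passed over by 0. The cause was not tested.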
